A study of Homo sapiens with 5 samples.

Results

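Clone-named antisense long non-coding RNAs are genes that the deposited annotation places on the strand opposite another gene and that carry the name of a genomic clone in place of a gene symbol. They were chosen by 3 criteria: a deposited category of exactly antisense, a gene name that begins with AC, AF, AL or AP and digits or with CTA-, CTB-, CTC- or CTD-, and a mean over the 5 libraries of at least 20 normalised reads (the read count divided by the size factor of the library). The criteria were met by 165 rows of the 18568 in the table, out of 959 clone-named antisense rows and 2033 antisense rows. The means that selected these members ran from 20.1 to 493 with a median of 45.0 normalised reads. Just inside the minimum lay AC116366.6 (20.1) and AC005944.2 (20.8), and just outside it AC010761.8 (19.9) and AP000688.11 (19.4). The mean takes in 3 anti-miR-146a libraries and 2 controls, so near the minimum a row that was high with anti-miR-146a entered more easily than one that was low.

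An antisense RNA is read from the strand opposite a gene, here called its sense partner. Many begin beside the promoter of the partner and run away from it, because most mammalian promoters are transcribed in both directions; genes of this kind now carry symbols that end in -DT, for divergent transcript, and others symbols that end in -AS. Some antisense RNAs are known to act on their partner, by the passage of the polymerase, by pairing with its RNA or through chromatin, but for most clone-named genes no function is known. The microRNA miR-146a is switched on by NF-kappaB and lowers the adaptor proteins IRAK1 and TRAF6 of interleukin-1 and Toll-like receptor signalling, and in senescent fibroblasts it is known to restrain the secretion of interleukins. A microRNA recognises RNA mainly through its seed, a short stretch near its 5′ end.

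RNA was measured in the human lung fibroblast line IMR90, and all cells, controls included, carried RASV12 from a retrovirus, a permanently active RAS that drives fibroblasts into senescence. Infected cells were selected with puromycin at 1.5 ug/ml for 3 days, seeded on day 10 and transfected 24 hours later with a control antagomir (n = 2 libraries, lettered B and C in the table) or with an antagomir against miR-146a (n = 3, lettered A, B and C), and harvested 24 after transfection, where the labels give no unit. An antagomir is a modified oligonucleotide that pairs with a microRNA and blocks it. All 5 libraries share 1 cell line and the RAS transgene, and the groups used here include none without RAS and none without an antagomir. Whether the libraries stem from separate cultures is not stated, so p-values measure only the spread between these libraries, and that spread may be technical.

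The libraries held 8430859 to 9283950 reads in the rows used here, which are part of each library. All 8 fibroblast markers examined were present in every library, with summed levels of 129174 to 182748 normalised reads and FN1 highest. Epithelial markers summed to 56.6 to 99.3, endothelial markers to 60.1 to 111 and blood markers to 30.3 to 44.4. The libraries lettered C stood apart from the rest: the first principal component of all tested genes held 53.4% of the variance and set the 2 C libraries apart, while the second held 29.3% and followed the antagomir. What the letter stands for is not given, and results are therefore set out with and without a term for the C libraries, with values that leave those libraries out for the median and for the members with the clearest differences. The level of miR-146a itself was not analysed here.

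The members sit close to protein-coding genes. Of the 165, 161 are in GENCODE 29 (GRCh38), 158 of them with identical bounds, and 157 have a protein-coding partner on the opposite strand. In 58 the member began inside the partner and ran out past the partner's start (head-to-head), 43 lay wholly inside the partner, 32 began beyond the partner's end and ran into it (tail-to-tail), 15 began within 2 kb of the partner's start without overlap (divergent) and 9 spanned the whole partner. In 39 members the start lay within 500 bases of the start of the partner. Exons of 115 members overlapped exons of the partner, and in 30 the overlap covered more than 50% of the member's exonic length. The sources used here do not give the strand setting of the counting. How far reads of the partner enter the counts of these 115 members is therefore not known and was not tested. For example, CTC-250I14.6 is wholly covered by exons of IER2, with means of 95.6 for the member and 3882 for IER2. AC005944.2, wholly covered by exons of AES, had a mean of 20.8 against 3259 for AES.

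Chromosome 19 carried 41 members (24.8%), against 7.17% of all rows with a mean of at least 20, and chromosome 5 carried 21 (12.7% against 5.24%). Members were chosen by the prefix of a clone name, and how these prefixes are spread over the chromosomes was not examined. The shares therefore cannot be read as a trait of antisense RNAs. Exonic length ran from 270 to 13120 bases with a median of 1322, and 47 members had 1 exon. Of the 80 members with a current symbol, 30 now end in -DT and 44 in -AS with a number. Per kilobase of exon the mean level ran from 2.28 normalised reads in CTA-243E7.1 to 761 in AC093673.5, with a median of 44.6.

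The 6 most abundant members differed widely in how even they were across libraries. AC093673.5 (FAM131B-AS2; chr7:143379692-143380495, minus strand), which is divergent from ZYX, the gene of the focal adhesion protein zyxin, had 453 normalised reads in control B and 563 in control C, against 429.5, 447 and 570.5 in anti-miR-146a libraries A to C. It was higher in both C libraries and the groups overlapped, with a log2 difference of −0.079 (SE 0.18). CTD-2371O3.3 (chr11:9459556-9460702, minus strand), head-to-head with ZNF143, a transcription factor of many promoters, had 388 and 382 in the controls against 368, 389.7 and 455 with anti-miR-146a, so that the groups overlapped. CTD-2336O2.1 (CLN8-AS1; chr8:1761990-1764502, minus strand), inside CLN8, a membrane protein of the endoplasmic reticulum, had 331 and 246 in the controls against 352, 358 and 260.0 with anti-miR-146a, lower in both C libraries. AC004988.1 (SUGCT-AS1; chr7:40538127-40546928, minus strand), inside the glutarate metabolism gene SUGCT, had 259.6 and 409.5 in the controls against 149, 175 and 409.7 with anti-miR-146a. Its 2 C libraries were the highest and within 1 normalised read of each other. AC062029.1 (EIF2AK3-DT; chr2:88627539-88631821, plus strand), which starts 37 bases inside EIF2AK3, the gene of the stress kinase PERK, had 178 and 276 in the controls against 214, 224 and 387 with anti-miR-146a, and was again highest in the C libraries. The remaining member of the 6, CTA-29F11.1, is described among the divergent members.

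With anti-miR-146a more members lay above the controls than below them, but the differences were small and no single member passed the test. The test was limma with its trend option on log2(value + 1), with the antagomir as the only term, over 6317 genes with at least 10 normalised reads in at least 2 libraries; all 165 members were tested, and a gene was called at a Benjamini-Hochberg adjusted p under 0.05. In RNA of whole cultures, fewer cells that make a transcript and less of it per cell cannot be told apart. No member was called, and 0% of all tested genes were; the smallest adjusted p of a member was 0.235. At an unadjusted p under 0.05, 20 of the 165 members were higher and 5 lower, against 423 and 292 of the 6317 tested genes. On the recovered reads edgeR and limma voom called 0 members and DESeq2 called 4. The median log2 difference of the members was 0.19, with 110 above 0 and 55 below, and that of all tested genes was 0.005, with 50.9% above 0. Other antisense rows with a mean of at least 20 had a median of 0.15 (67 of 94 above 0), intergenic long non-coding RNAs over the same minimum one of 0.19 (115 of 162) and protein-coding genes one of −0.009. Other classes of non-coding RNA thus had medians of similar size.

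The median varied with the control libraries used. Relative to its mean over libraries, the median member stood at −0.23 on the log2 scale in control B, 0.01 in control C, 0.008 in anti-miR-146a A, 0.11 in B and 0.17 in C. Control B was thus the lowest, and control C lay beside anti-miR-146a A. Leaving out control B brought the median difference to 0.041, and leaving out control C to 0.32. In each of these settings the 1 control left has a single letter, and the members had a median C difference of 0.094. Letter and group are thus partly mixed there. With the C term and all 5 libraries the median was 0.19. Between libraries of the same letter it was 0.25 for B and 0.18 for C, and without both C libraries 0.24. The 75 members with a mean of at least 50 had a median of 0.25, and the 42 without exon overlap one of 0.18. The members summed to 10432 and 12163 normalised reads in the controls and to 11804, 12419 and 13317 with anti-miR-146a, which is 0.128% to 0.156% of the normalised reads in all rows used here.

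The groups did not overlap in 61 members: in 49 every anti-miR-146a library was above both controls (29.7%, against 16.5% of all tested genes) and in 12 every one was below (7.27% against 13.5%). With a term for the C libraries in the limma fit, 30 members were called higher and 4 lower, where 8.64% of all tested genes were called higher and 6.79% lower. The 4 lower were CTA-29F11.1, AC116366.6, CTD-3222D19.8 and AP000692.10. Over all settings tried, the adjusted p of these 34 ran from 1.21e-10 to 0.984. Groups did not overlap in 28 of the 34. Differences between libraries of the same letter were above 0 for both letters in 91 members and below 0 for both in 29. These 2 counts were not made for all tested genes, whose median differences were 0.025 for B and 0.014 for C. The authors' deposited table gives an adjusted p for 135 members, of which 6 were called higher and 1, CTA-29F11.1, lower, where 1.7% and 0.876% of all its rows with an adjusted p were called. DESeq2 on the recovered reads called CTD-3193O13.12, CTB-25B13.12 and AC007773.2 higher and CTA-29F11.1 lower, where it called 0.505% and 0.244% of genes.

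**Figure D1:**
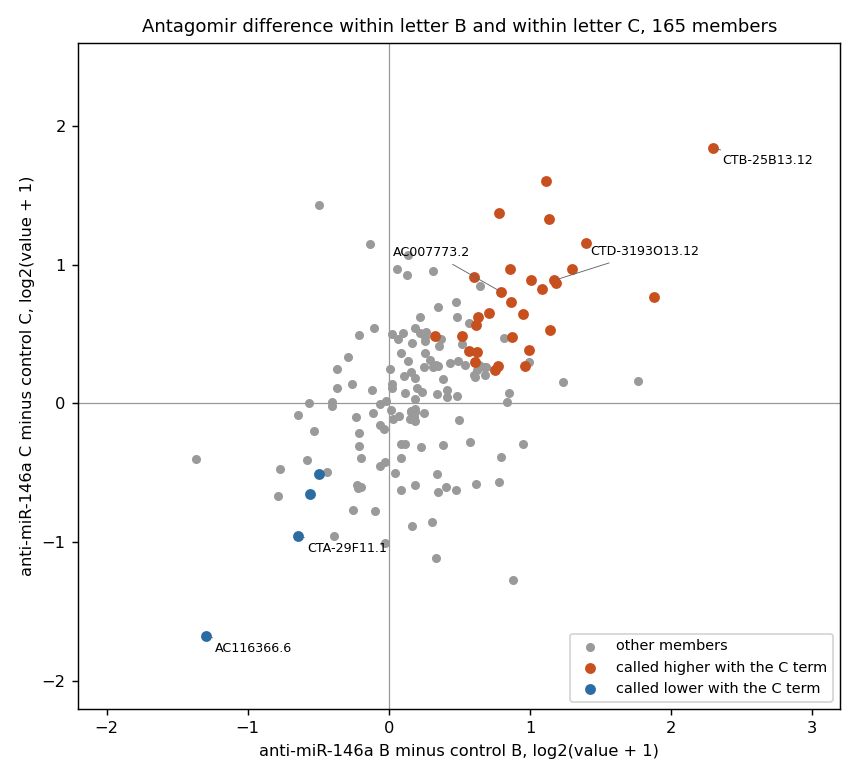
Log2(value + 1) difference of anti-miR-146a B minus control B (horizontal axis) against anti-miR-146a C minus control C (vertical axis), 1 point per member. Of the 165 members, 91 lie to the upper right of 0 on both axes and 29 to the lower left, counts that were not made for all tested genes. The coloured points are the 30 called higher and 4 called lower by limma with the C term.

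By position, the medians were 0.29 over the 15 divergent members, 0.27 over the 32 tail-to-tail, 0.21 over the 43 inside the partner, 0.15 over the 58 head-to-head and 0.02 over the 9 that span the partner. Their ranges overlapped throughout, and no difference between positions was tested. The 39 members that start within 500 bases of the partner's start had a median of 0.27, with 29 above 0. With the C term, 9 of these 39 were called higher and 2 lower, beside 8.64% and 6.79% of all tested genes.

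**Figure D2:**
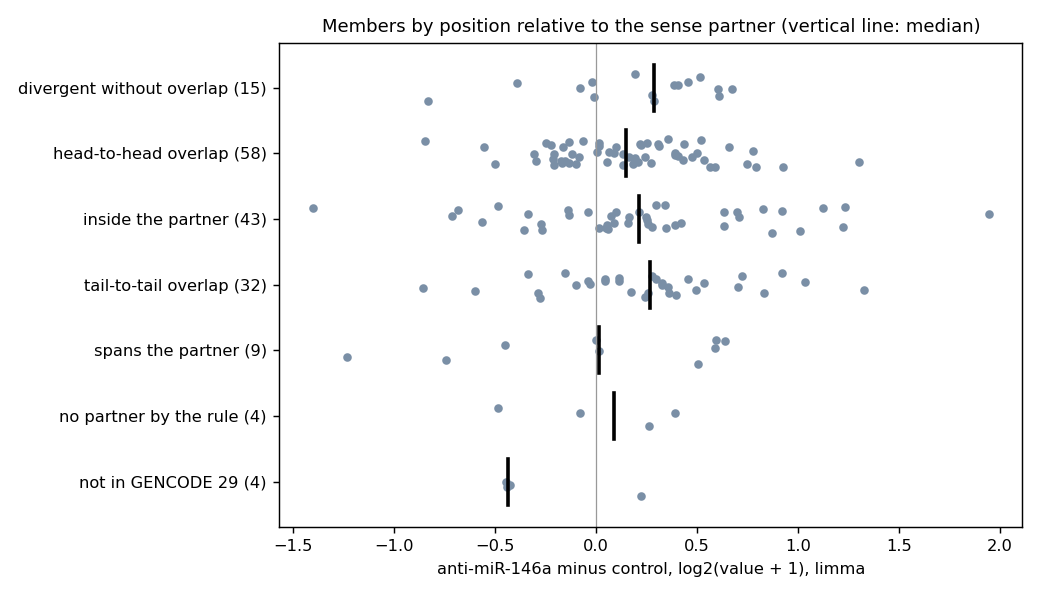
Log2(value + 1) difference between anti-miR-146a and control (limma) of each member, in rows by position relative to the sense partner, with the number of members in brackets and a vertical line at the median. The medians of the divergent and tail-to-tail members lie at 0.29 and 0.27 and that of the spanning members at 0.02, within ranges that overlap.

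Among the divergent members the clearest difference was a lower level. CTA-29F11.1 (ENSG00000260708.1, now TBC1D22A-DT; chr22:46761894-46762563, minus strand, 1 exon) starts 54 bases from the start of TBC1D22A, which encodes a protein of the Rab GTPase-activating family, and runs the other way. It had 555 normalised reads in control B and 599 in control C, against 309.6, 354 and 309 in the anti-miR-146a libraries. Every anti-miR-146a library lay below both controls, and the C libraries did not stand out. The means were 577 ± 31.4 (SD, n = 2) and 324 ± 26.0 (SD, n = 3), 1.78-fold lower, with a log2 difference of −0.83 (SE 0.13, limma adjusted p 0.235). With the C term limma gave −0.83 (SE 0.11, adjusted p 0.000375). The authors' deposited table lists a fold of 0.562 (adjusted p 0.000131). Without both C libraries the log2 difference was −0.74. No annotated exon of TBC1D22A overlaps it.

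Its promoter is shown because it lies between a member and a partner that leave it in opposite directions. The RefSeq window of TBC1D22A-DT covers chr22:46762479-46762778 (GRCh38.p14, minus strand), from 250 bases before the annotated start to 50 after it, and holds the start of the deposited gene. Capitals mark the ETS motif CCGGAAG on either strand.
TBC1D22A-DT promoter: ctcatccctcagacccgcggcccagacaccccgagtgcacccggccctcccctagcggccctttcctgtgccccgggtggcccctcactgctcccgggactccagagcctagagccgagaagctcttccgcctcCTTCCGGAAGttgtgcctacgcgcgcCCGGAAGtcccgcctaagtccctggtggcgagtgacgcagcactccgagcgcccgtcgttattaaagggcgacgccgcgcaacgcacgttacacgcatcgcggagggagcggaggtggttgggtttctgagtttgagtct
The window held 3 matches, 2 of which overlap in the first run of capitals, on opposite strands, as that run reads the same on both strands.

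Of the 15 divergent members, 10 lay above 0 and 5 below. With the C term 3 of them were called higher and 1 lower (all tested genes 8.64% and 6.79%). Some that lay higher are given first. CTA-292E10.6 (chr22:28800683-28848559, plus strand), chosen after its values were seen, starts 86 bases from XBP1, a transcription factor of the unfolded protein response. It had 139 and 134 in the controls against 195, 239 and 162 with anti-miR-146a, with groups apart and a log2 difference of 0.52 (SE 0.20). With the C term the value was 0.47 (SE 0.14, limma adjusted p 0.0376). CTD-2203K17.1 (TARS1-DT; chr5:33424025-33440619, minus strand), also chosen after its values were seen, starts 77 bases from TARS, the threonyl-tRNA synthetase gene. It had 39.1 and 62.5 in the controls against 67.0, 76.7 and 98.1 with anti-miR-146a, so that every anti-miR-146a library exceeded both controls and each C library exceeded the B library of its group. CTA-445C9.14 (TFIP11-DT; chr22:26512537-26514568, plus strand), chosen in the same way, starts 32 bases from the splicing factor gene TFIP11 and had 72.5 and 107 against 121, 111 and 133. AF213884.2, which starts 10 bases from NFKB1, a subunit of NF-kappaB, and was picked for that partner, had overlapping groups, with 17.2 and 26.1 in the controls against 20.8, 17.3 and 25.3 with anti-miR-146a.

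Of the 58 head-to-head members, 9 were called higher and 1 lower with the C term (all tested genes 8.64% and 6.79%). AC007773.2 (ENSG00000267213.4, now DPY19L3-DT; chr19:32390050-32405560, minus strand) starts 17 bases inside DPY19L3, which encodes a C-mannosyltransferase. It had 161 and 169 normalised reads in the controls against 276, 281 and 295 with anti-miR-146a. The groups were far apart and the letters made little difference. The means were 165 ± 5.34 (SD, n = 2) and 284 ± 10.2 (SD, n = 3), 1.72-fold higher, with a log2 difference of 0.78 (SE 0.13, limma adjusted p 0.235) and 0.80 within both B and C. With the C term the limma adjusted p was 0.000709, and that of the authors' deposited table was 0.00179. Without both C libraries the log2 difference was 0.78. DPY19L3 itself, with 1.85% of the member's exonic length overlapped, had 707 and 672 in the controls against 573, 537 and 605 with anti-miR-146a, a log2 difference of −0.27 (SE 0.11, limma adjusted p 0.44). The pair thus lay on opposite sides of 0. Every anti-miR-146a library of DPY19L3 lay below both controls, but limma did not call it with the antagomir alone or with the C term (adjusted p 0.0759). Without both C libraries its log2 difference was −0.35.

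The promoter of this pair is shown as the region both genes share. The RefSeq window of DPY19L3-DT covers chr19:32405490-32405789 (GRCh38.p14, minus strand) and holds the deposited start. Capitals mark the ETS motif CCGGAAG and the GC box GGGCGG.
DPY19L3-DT promoter: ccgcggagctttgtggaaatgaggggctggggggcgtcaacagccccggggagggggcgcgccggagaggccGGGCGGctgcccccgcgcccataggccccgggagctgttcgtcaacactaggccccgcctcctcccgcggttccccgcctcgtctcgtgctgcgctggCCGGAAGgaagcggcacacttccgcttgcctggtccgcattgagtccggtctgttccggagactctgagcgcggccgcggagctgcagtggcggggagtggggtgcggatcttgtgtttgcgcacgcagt
It held 1 match to each.

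Another head-to-head member that was higher is AC002310.12 (ENSG00000235560.3, now ZNF747-DT; chr16:30534752-30537144, plus strand), which starts 595 bases inside the zinc finger gene ZNF747 and shares 32.6% of its exonic length with it. It had 92.6 and 75.6 normalised reads in the controls against 154, 197 and 135 with anti-miR-146a. Every anti-miR-146a library exceeded both controls, 1.93-fold on the means, with a log2 difference of 0.93 (SE 0.22, limma adjusted p 0.341, and 0.0024 with the C term). In the authors' deposited table its adjusted p was 0.0244. CTD-3203P2.3 (chr16:27313387-27314101, minus strand), chosen after its values were seen, starts 433 bases inside IL4R, the receptor of interleukin-4. It had 87.8 and 76.5 in the controls against 165, 176 and 100.1 with anti-miR-146a, and the smaller difference in the C libraries (0.38 against 1.00 in B on the log2 scale) came with a lower level in C. AC108004.3 (chr17:404468-414023, minus strand), chosen in the same way, had 22.0 and 13.1 against 48.1, 49.3 and 34.4, and its partner C17orf97 had 88.8 and 79.3 against 134, 157 and 104, so that both genes were higher in every anti-miR-146a library. Exons of that partner cover 23.5% of the member.

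Lower head-to-head members were fewer. AP000692.10 (ENSG00000273199.1; chr21:36319792-36320670, minus strand) starts 481 bases inside MORC3, which encodes a nuclear ATPase. It had 140.3 and 128 normalised reads in the controls against 97.2, 94.9 and 80.9 with anti-miR-146a, with groups apart and a log2 difference of −0.56 (SE 0.18, limma adjusted p 0.373, and 0.0162 with the C term). AC009403.2 (RBM33-DT; chr7:155611231-155645205, minus strand), beside the RNA-binding protein gene RBM33, had 40.1 and 39.2 in the controls against 27.4, 26.5 and 29.3 with anti-miR-146a. The groups were apart, but limma did not call it with or without the C term (log2 difference −0.50, SE 0.23, adjusted p 0.471, and 0.177 with the C term). AC073072.5 (IL6-AS1; chr7:22725395-22727620, minus strand), which overlaps IL6 and was picked for that partner after its values were seen, had 52.5 and 108 in the controls against 60.4, 55.7 and 88.0 with anti-miR-146a. Its groups overlapped, and its level followed the letter, with the 2 C libraries highest.

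Among the 32 tail-to-tail members 7 were called higher and 1 lower with the C term (all tested genes 8.64% and 6.79%). CTD-3193O13.12 (ENSG00000214248.2; chr19:7898804-7903542, minus strand, 1 exon) runs into the end of LRRC8E, a subunit of the volume-regulated anion channel, whose exons cover 67.9% of it. It had 121 and 126 normalised reads in the controls against 257, 274 and 234 with anti-miR-146a. The means were 124 ± 3.34 (SD, n = 2) and 255 ± 20.2 (SD, n = 3), 2.06-fold higher, and it had the smallest unadjusted p of all members (0.000318), with a log2 difference of 1.03 (SE 0.14, limma adjusted p 0.235). With the C term limma gave 1.02 (SE 0.13, adjusted p 0.000258), and the authors' deposited table gave a fold of 2.06 (adjusted p 0.00102). Leaving out both C libraries gave a log2 difference of 1.12. LRRC8E was not analysed here, and the share of its reads in this count was not tested.

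CTB-55O6.12 (ENSG00000267169.1, now ADGRL1-AS1; chr19:14137179-14171267, plus strand), which runs into the end of ADGRL1, an adhesion receptor also known as latrophilin, had 64.0 and 50.4 in the controls against 105, 129.6 and 94.1 with anti-miR-146a. The log2 difference was 0.92 (SE 0.22, limma adjusted p 0.341, and 0.00444 with the C term), and the authors' deposited table called it (adjusted p 0.0343). Its partner had 78.3 and 66.2 against 109, 90.4 and 86.0, a log2 difference of 0.39 (SE 0.20, limma adjusted p 0.514), on 14.8% of shared exonic length. Both genes were thus higher in every anti-miR-146a library, and the partner was not called. CTB-55O6.10 (chr19:14119106-14119537, plus strand), chosen after its values were seen, runs into ASF1B, a histone chaperone, and had 18.1 and 12.1 against 41.5, 49.3 and 28.3. Its partner had overlapping groups, at 59.2 and 52.2 against 47.2, 58.4 and 43.5. CTD-3222D19.8 (ENSG00000279529.1; chr19:16572624-16575340, plus strand), at the end of the Mediator subunit gene MED26, was lower, with 161 and 145.5 in the controls against 87.8, 114 and 102 with anti-miR-146a (log2 difference −0.60, SE 0.18, limma adjusted p 0.369, and 0.0182 with the C term).

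Members inside their partner held the largest fold. CTB-25B13.12 (ENSG00000267317.2; chr19:1457670-1458580, minus strand, 1 exon) lies within APC2, a relative of the tumour suppressor APC, and 42.9% of it is overlapped by exons of that gene. It had 19.1 and 16.8 normalised reads in the controls against 60.4, 97.7 and 62.7 with anti-miR-146a. The means were 17.9 ± 1.62 (SD, n = 2) and 73.6 ± 20.9 (SD, n = 3), 4.10-fold higher, with a log2 difference of 1.95 (SE 0.29, limma adjusted p 0.235, and 0.000312 with the C term). The authors' deposited table gave a fold of 4.11 (adjusted p 0.000343). Leaving out both C libraries gave a log2 difference of 1.95. APC2 had 57.3 and 141 in the controls against 64.2, 72.1 and 195 with anti-miR-146a. The 2 C libraries of APC2 were its highest, while those of the member were not raised. Within the letters APC2 was higher with anti-miR-146a, by 0.33 in B and 0.47 in C on the log2 scale. With the C term its log2 difference was 0.34 (SE 0.16, limma adjusted p 0.163), so it was not called.

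Of the 43 members inside their partner, 31 lay above 0 and 12 below. With the C term 9 of them were called higher and 1 lower (all tested genes 8.64% and 6.79%). The members described next were named for a small unadjusted p and were about 2-fold higher. CTD-2026K11.4 (ENSG00000275454.1; chr15:75639760-75640976, plus strand), inside the model of IMP3, a protein of ribosomal RNA processing, had 52.5 and 70.9 in the controls against 121, 120.5 and 130.5 with anti-miR-146a. The log2 difference was 1.009 (SE 0.20, limma adjusted p 0.31, and 0.000859 with the C term), and the authors' deposited table called it (adjusted p 0.0152). CTD-3203P2.1 (ENSG00000259940.2; chr16:27213308-27214993, minus strand), inside KDM8, a JmjC-domain hydroxylase, had 19.1 and 24.3 in the controls against 47.2, 48.4 and 48.6 with anti-miR-146a, which is 2.22-fold higher (limma adjusted p 0.315, and 0.00544 with the C term). AC010761.6 (ENSG00000265073.1; chr17:28732963-28743102, minus strand), 96.7% of whose exonic length is overlapped by exons of NEK8, a kinase of the primary cilium, had 36.3 and 42.9 against 76.5, 66.6 and 85.0. In all 3 the lowest anti-miR-146a library exceeded the higher control.

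AC116366.6 (ENSG00000234290.2; chr5:132468890-132473043, minus strand) showed the largest decrease. It had 30.5 and 34.5 normalised reads in the controls against 13.2, 11.9 and 10.1 with anti-miR-146a. The log2 difference was −1.40 (SE 0.29, limma adjusted p 0.315, and 0.00873 with the C term), and −1.22 without both C libraries. It is also the member nearest to the minimum mean, and counting error alone is 22.4% of a value of 20 reads. CTA-384D8.36 (chr22:50523926-50524780, plus strand), inside the model of SCO2, an assembly factor of cytochrome c oxidase, had 32.5 and 31.7 in the controls against 14.2, 23.7 and 22.3 with anti-miR-146a, and was not called with or without the C term. CTD-2013N24.2 (EOGT-DT; chr3:69013941-69056622, plus strand), which spans TMF1, the gene of a Golgi protein, had 40.1 and 39.2 in the controls against 22.7, 22.8 and 24.3 with anti-miR-146a. Its groups were apart and even within themselves, but the limma adjusted p was 0.373, and 0.0556 with the C term.

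**Figure D3:**
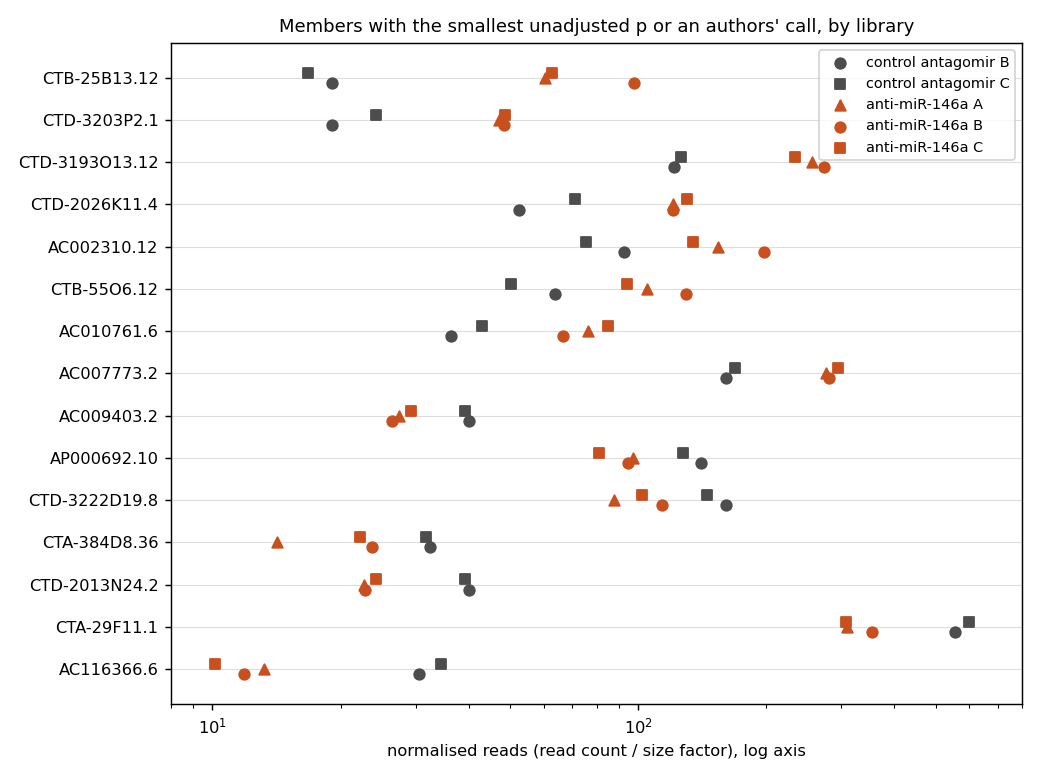
Normalised reads per library (log axis) of the members with the smallest unadjusted p in each direction and of those called in the authors' deposited table, ordered by log2 difference, with grey points for controls, orange points for anti-miR-146a and the letter shown by shape. In every row the 3 anti-miR-146a libraries lie on one side of both controls, from CTB-25B13.12 (19.1 and 16.8 against 60.4 to 97.7) to AC116366.6 (30.5 and 34.5 against 10.1 to 13.2).

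Other members differed mainly between the C libraries and the rest, in both groups. In the limma fit with both terms, 35 members were called higher and 7 lower in the C libraries, where 17.2% of all tested genes were called higher and 12.3% lower. CTC-550B14.7 (GP6-AS1; chr19:55006193-55048086, plus strand), which spans the platelet collagen receptor gene GP6, had the largest difference, with 57.8 normalised reads in control C and 43.5 in anti-miR-146a C but 13.4 in control B and 6.61 and 4.56 in anti-miR-146a A and B. The log2 difference was 2.46 (SE 0.34, limma adjusted p 6.72e-05). GP6 had 3.82, 1.89 and 3.65 in the other libraries and 11.2 and 18.2 in the C libraries. CTA-243E7.1 (chr22:25052122-25065241, minus strand), inside KIAA1671, had 37.3 and 71.8 in the C libraries and 12.4 to 14.2 in the others. AC073130.3 (chr7:116237929-116327896, minus strand), which overlaps the caveolin gene CAV2 without shared exons, had 57.8 and 81.9 in the C libraries and 15.5 to 19.8 in the others, and CAV2 had 1521 and 1456 against 760.3 to 964. The C libraries were the highest for member and partner alike.

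Of the other members called in the C libraries, 2 are named after their values were seen, for partners that have rows of their own. AC069363.1 (CCL3-AS1), which runs into the chemokine gene CCL3 and shares 65.4% of its exonic length with it, had 32.7 and 44.5 in the C libraries and 10.5 to 13.2 in the others, and CCL3 had 2426 and 3865 against 969 to 1308. CCL3 has near-identical copies in the genome, so its count is uncertain. CTD-2021J15.1, divergent from the membrane protein gene DCBLD2, had 67.2 and 96.1 against 30.5 to 44.4, and DCBLD2 22962 and 24003 against 12962 to 15305.

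The members lowest in the C libraries were CTD-2269F5.1, AC142528.1 and CTC-471J1.11. CTD-2269F5.1 (EDIL3-DT; chr5:84384427-84490765, plus strand), head-to-head with the matrix protein gene EDIL3, had 14.9 and 11.1 in the C libraries and 24.8 to 37.8 in the others (log2 difference −1.11, SE 0.31, limma adjusted p 0.0132). EDIL3 was lower there too, with 2037 and 2083 against 2405 to 2759. AC142528.1 (chr2:3519275-3523197, plus strand), head-to-head with ADI1, an enzyme of methionine salvage, had 12.1 and 19.2 against 23.9 to 33.8. CTC-471J1.11 (chr19:52049007-52049754, plus strand), inside the zinc finger gene ZNF432, had 84.0 and 54.6 in the C libraries and 85.9 to 123 in the others. Both antagomir and C differences were called in 9 members, a count that was not made for all tested genes and is not read as an excess. Among the 9 was CTB-5E10.3, chosen after its values were seen. It had 5.73 and 23.3 in the controls against 25.5, 23.7 and 40.5 with anti-miR-146a.

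**Figure D4:**
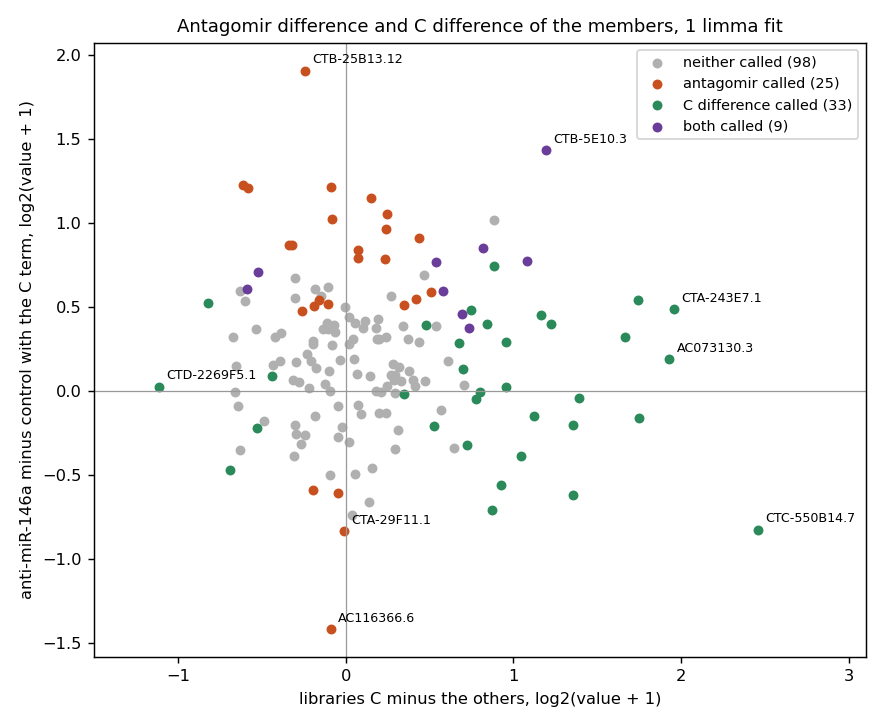
Log2(value + 1) difference of the C libraries from the others (horizontal axis) against that between anti-miR-146a and control with the C term (vertical axis), 1 point per member, coloured by the limma calls (adjusted p under 0.05). CTC-550B14.7 lies farthest right at 2.46, CTB-25B13.12 at the top at 1.91 and AC116366.6 at the bottom at −1.42. For both differences 9 members are called, a count not made for all tested genes.

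Sense partners with a row numbered 68 for 70 members, and 66 pairs could be tested on both sides. No partner was called by limma with the antagomir as the only term, and with the C term 7 of 65 tested partners were called higher and 1 lower, where 8.64% and 6.79% of all tested genes were. The partner called lower was HEXIM1, an inhibitor of transcription elongation, whose member AC002117.1 was not called. In 3 pairs both genes were called higher: AC108004.3 with C17orf97, AC092667.2 with AFF3, and AP000695.6 with the tight junction gene CLDN14. AC092667.2, which lies inside AFF3 and has 29.8% of its exonic length overlapped, had 13.4 and 9.33 normalised reads in the controls against 22.7, 30.1 and 30.3 with anti-miR-146a. AP000695.6, which shares no exon with its partner, had 27.7 and 27.1 in the controls against 34.9, 48.4 and 71.8 with anti-miR-146a. In both members every anti-miR-146a library exceeded both controls. For the antagomir the differences of member and partner had the same sign in 35 of 66 pairs, with a median of 0.20 for the members and −0.002 for the partners. Across these pairs Pearson's r was 0.20 and Spearman's rho 0.10, as a description over genes that share the same 5 libraries. For the C libraries r was 0.52 and rho 0.46 over the same pairs. Where exons overlap (51 pairs) they were 0.62 and 0.55, and where they do not (15 pairs) 0.04 and 0.10. For the antagomir, r was 0.17 and rho 0.056 where exons overlap, and 0.22 and 0.19 where they do not. By r and rho, member and partner were thus more alike for the letter than for the antagomir in pairs whose exons overlap, but not in the 15 pairs without overlap. By sign they were more often alike for the letter in both kinds of pair. For the C libraries the signs agreed in 46 of 66 pairs, with 36 of 51 where exons overlap and 10 of 15 where they do not. For the antagomir they agreed in 28 of 51 and 7 of 15. Whether reads of a partner enter the counts of those members was not tested.

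**Figure D5:**
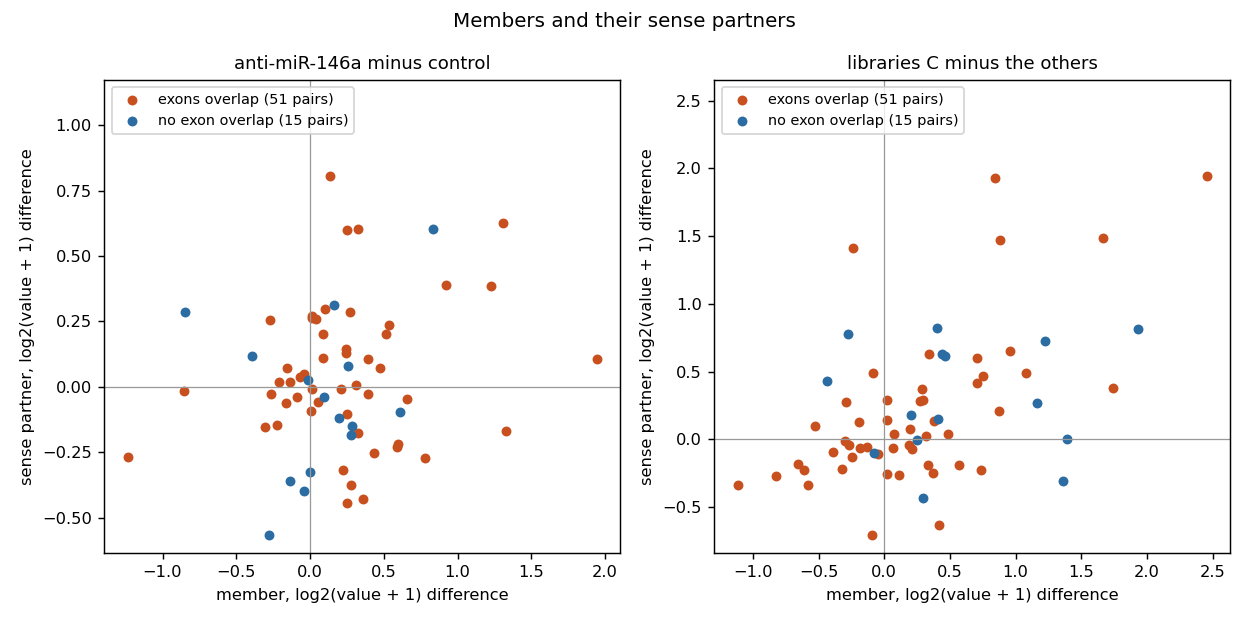
Log2(value + 1) difference of each member (horizontal axis) and of its sense partner (vertical axis), for anti-miR-146a minus control on the left and for the C libraries minus the others on the right, with pairs whose exons overlap in orange and the rest in blue. The 66 pairs scatter around 0 on the left (r 0.20) and lie along a rising diagonal on the right where exons overlap (r 0.62 over 51 pairs).

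The seed of miR-146a is shown because a microRNA lowers RNA that carries its match. Capitals mark the seed, bases 2 to 8 of the mature sequence (RefSeq, chr5:160485372-160485393, plus strand, GRCh38.p14).
hsa-miR-146a-5p: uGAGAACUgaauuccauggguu
A full match of the seed with an A opposite the first base reads AGTTCTCA in DNA letters (8mer), and the shorter matches are AGTTCTC and GTTCTCA (7mers). Of the 161 members with GENCODE 29 transcripts, 8 held the 8mer (4.97%) and 29 any of these matches (18.0%). Among other tested antisense rows 7 of 137 held the 8mer (5.11%) and 41 any (29.9%), and among tested protein-coding rows 603 of 5165 (11.7%) and 2396 (46.4%). The median of the longest transcripts was 1006, 1848 and 3666 bases in the same order, and longer transcripts hold more matches.

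The 4 most abundant members with the 8mer are shown with 30 bases around the site, the match in capitals (GENCODE 29 transcripts, GRCh38).
CTD-3138B18.5, chr19:58258789-58258818, minus strand: tgcggcctacctcaAGTTCTCAtgcctcac
AC007246.3, chr2:39600466-39600495, plus strand: tccaggtcccacccAGTTCTCAgtaggctt
CTD-3222D19.8, chr19:16574032-16574061, plus strand: atgctttgtgttttAGTTCTCAcaactctg
AC137932.6, chr16:89324372-89324401, plus strand: gcacgtgggcgcaaAGTTCTCAgcttcgtt
They did not move in one direction. CTD-3138B18.5 (ZNF8-DT) had 102 and 192 normalised reads in the controls against 167, 199.9 and 232 with anti-miR-146a, with overlapping groups and a log2 difference of 0.49 (SE 0.30, limma adjusted p 0.57, and 0.0177 with the C term). AC007246.3 (MAP4K3-DT) had 144 and 209 against 126, 124 and 180.0, a log2 difference of −0.30 (SE 0.25). CTD-3222D19.8, described above, was lower in every anti-miR-146a library. AC137932.6, inside the chromatin regulator gene ANKRD11, had 60.1 and 138 against 80.2, 86.7 and 186, and was highest in the C libraries. It was also higher with anti-miR-146a within both B and C, with a log2 difference of 0.26, and 0.45 with the C term. The median log2 difference was 0.14 over the 8 members with the 8mer, 0.28 over 21 with a 7mer only and 0.20 over 132 without a match. No difference between these groups was tested.

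Promoter windows of 300 bases from RefSeq (GRCh38.p14) were matched to 67 members through their current symbols, and 44 of these windows hold the deposited start. The ETS motif CCGGAAG was found in 25.4% of the 67 windows, against 10.3% of all 35116 promoters in the RefSeq table. The GC box GGGCGG was found in 62.7% against 45.0%, and the cyclic AMP response element TGACGTCA in 4.48% against 1.85%. The AP-1 motif TGACTCA was found in 5.97% against 4.95%, and the CCAAT box in 22.4% against 34.6%. In the 138 windows matched to sense partners the ETS motif was found in 18.1% and the GC box in 65.9%. The shares there were 2.17% for the cyclic AMP response element, 1.45% for AP-1 and 37.0% for the CCAAT box. The GC box was thus no more frequent in members than in partners. Both strands were searched, motifs may overlap, and no test was made of these shares. A match is a description of the letters in a window.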

How the data were processed

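RNA depleted of ribosomal RNA was sequenced from 5 libraries (KAPA RNA HyperPrep with RiboErase, per the labels' protocols). The submitters' processing notes name Trimmomatic 0.35, STAR 2.5.1b, DESeq2 1.22.2 and GRCh38. The sources used here do not give the counting tool, its strand setting or the annotation release. The deposited signal per library is, from its values, a read count divided by a size factor, and multiplying it back by that factor gave whole reads for 100% of values at a tolerance of 1e-06. The deposited fold and p-value columns are the authors' own comparison of anti-miR-146a with control. The table's columns carry letters and the labels carry numbers, so columns were tied to groups and not to single labelled replicates.

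Differences were fitted across all genes with at least 10 in at least 2 libraries, on log2(value + 1), by limma 3.58.1 with trend in R 4.3.3, with the antagomir as the only term. This scale understates the change of low genes. Alternatives were edgeR 4.0.16 with and without TMM, DESeq2 1.42.0 and limma voom on the recovered reads, other filters (none, or 50) and pseudocounts (0.1 and 5), the letter as a replicate block, a term for the C libraries, both C libraries left out and each library left out in turn. The steps were tested on simulated data. Positions, exons and partners came from GENCODE 29 and sequences from RefSeq or GENCODE 29 transcripts. A partner is the protein-coding gene on the opposite strand with the largest overlap or, without overlap, a start within 2 kb. Named members were the 6 with the highest mean, the 7 with the smallest unadjusted p in each direction, those called in the authors' deposited table, the 3 highest and the 3 lowest by C difference, the 2 on either side of the minimum mean, and the 4 highest with an 8mer. Members, lists and rules were chosen with earlier results of these data known. Counting error at 20 reads is 22.4% of the value.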

Additional observations from a re-analysis of the deposited data

How the results depend on the processing

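The letter does not show which libraries belong together, although deviations of the same letter correlated (0.505 for B and 0.661 for C, only 2 pairs). With 2 controls, their deviations from the group mean are mirror images, so the 2 correlations are not independent. They cannot show whether the B libraries belong together. With the letter as a replicate block limma called 636 genes, 24 members and 6 partners, against 0 of each without it. A term for the C libraries gave 975, 34 and 8, leaving out both C libraries 1555, 37 and 18 with 1 control left, and edgeR with the C term, added after the data were seen, 993, 33 and 8. DESeq2 called 46 genes and 4 members. The remaining tests, filters and pseudocounts called 0 members. Leaving out 1 library called 0 to 12 genes and moved the members' median from 0.041 (without control B) to 0.32 (without control C), and the C calls among members from 42 to 33 to 39. Of the values for named members, 414 kept direction and side of the threshold, 59 passed it and 27 changed sign. The sign changes were in members with small antagomir differences, some of which differed widely between the C libraries and the rest. That C difference was 1.93 for AC073130.3, 1.16 for AC137932.6 and −1.11 for CTD-2269F5.1. Where a control is left out, letter and group are partly mixed. Leaving out 1 library gave −0.24 to 0.078 for AC093673.5, −0.023 to 0.13 for CTD-2371O3.3, −0.050 to 0.38 for CTD-2336O2.1, −0.060 to 0.57 for AC062029.1, −0.60 to 0.92 for CTA-243E7.1, −0.95 to 0.68 for AC073130.3, −0.15 to 0.69 for CTD-2269F5.1, −0.48 to 0.58 for AC005944.2 and −0.34 to 0.85 for AC137932.6. Without both C libraries CTD-2371O3.3 stood at −0.033. AC073130.3 stood at 0.027 by edgeR, 0.012 with TMM, 0.015 by DESeq2, 0.14 with the block, 0.19 with the C term and 0.32 by edgeR with it. CTD-2269F5.1 stood at −0.15 with the block, and AC005944.2 at −0.037 by edgeR, −0.045 with TMM and −0.052 by DESeq2. The cause was not tested.

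Members near the minimum mean are limited by counting error.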
